A study of Mus musculus with 14 samples.

Results

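The transcripts followed here were those of the transcriptional coactivators Yap1 and Wwtr1 (TAZ), the TEAD transcription factors Tead1 to Tead4 that carry them to DNA, and 4 genes widely used as readouts of that complex, namely Cyr61 (Ccn1), Ctgf (Ccn2), Ankrd1 and Amotl2. These 10 genes were chosen by name from the 30503 genes of the count table, and all 10 were among the 17358 genes with enough counts to be tested. They were measured by bulk RNA-seq in 14 cultures of tdTomato+ femur bone marrow cells from mice, every culture being the progeny of 1 cell and called a clone here. The growth plates at the distal end of the femurs were removed before the cells were released. All mice carried Fgfr3-creER, a transgene that makes tamoxifen-inducible Cre in Fgfr3-expressing cells, and the R26R(tdTomato/+) reporter, and all received tamoxifen at P21. The 5 Fgfr3-WT clones came from P23 mice with intact Trp53 and were collected at passage 8. The other clones also carried Trp53fl/fl and are called Fgfr3-p53 cKO, with 5 clones from P28 mice at passage 8 and 4 clones from 4-month-old (P4M) mice at passages 6 to 8.

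In the Hippo pathway, a kinase cascade ending in LATS1 and LATS2 phosphorylates YAP and TAZ, which then stay in the cytoplasm or are degraded. Unphosphorylated YAP and TAZ enter the nucleus and act through TEAD factors, because they bind no DNA themselves. The pathway responds to cell density, cell shape and matrix stiffness, and in skeletal cells YAP and TAZ are known to influence the choice between cartilage and bone fates. Transcript levels do not report phosphorylation or location of the YAP protein, and the density of the cultures at collection was not given in the sources used here.

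The libraries held 25688946 to 38958693 counts in the WT group and 37606033 to 52857424 in the cKO groups. Trp53 ranged from 49.9 to 68.2 CPM (counts scaled to library size) in the WT clones and from 1.72 to 2.84 CPM in the 9 cKO clones. All WT libraries shared a submission number and all cKO libraries shared another. Differences of genotype, of submission and of age at isolation (P23 against P28 or later) therefore cannot be told apart. The paper reports that WT clones took longer than P28 cKO clones to reach the passage of collection. It also reports that a smaller fraction of WT clones reached that passage. Time in culture and survival to collection thus cannot be told apart from genotype in P28 against WT either. Cartilage markers (Sox9, Col2a1, Acan and Col9a1) summed to 742 to 22885 CPM in WT, 170 to 1324 CPM in P28 and 23.0 to 54.4 CPM in P4M clones. The bone markers Runx2, Sp7, Bglap, Alpl and Col1a1 summed to 45.2 to 1244 CPM in WT, 14900 to 22147 CPM in P28 and 8885 to 53213 CPM in P4M clones. Most of the cKO sums was Col1a1, at 14680 to 22012 CPM in P28 and 7377 to 50643 CPM in P4M. In P28 replicates 1 to 3, Sp7, Bglap and Alpl lay within the WT ranges. In P28 replicates 4 and 5 and in all P4M clones these 3 genes lay above them. Alpl, for example, was at 916 CPM or more there, against at most 78.4 CPM in WT. A summed list of Acta2, Tagln, Cnn1 and Myh11, typical of contractile cells, spanned 1.11 to 104 CPM in WT, 1771 to 4008 CPM in P28 and 480 to 741 CPM in P4M clones. A list of 7 stromal markers summed to 322 to 4900 CPM in WT, 12683 to 22677 CPM in P28 and 8801 to 33908 CPM in P4M clones. Col1a2 made up most of the cKO sums, at 7793 to 33256 CPM. It was at most 0.842 CPM in WT replicates 1 to 4 and at 4354 CPM in WT replicate 5. The WT and cKO ranges of Pdgfra, Pdgfrb, Prrx1 and Thy1 overlapped. Of the 7 markers, Pdgfrb was at 233 CPM or more in every clone, whereas Lepr was at or under 0.277 CPM in the WT group. Blood and vessel cell markers were low: Cdh5 had no count, Ptprc stayed at or under 0.154 CPM, and the blood list summed to at most 54.4 CPM in WT, nearly all of it Cd68. The vessel list summed to at most 0.740 CPM in WT, 4.49 CPM in P28 and 12.8 CPM in P4M clones. Markers of striated muscle summed to at most 0.198 CPM in any clone. The cartilage, bone, contractile and stromal sums therefore moved with the groups in every comparison with WT below. The bone and stromal sums moved mainly through Col1a1 and Col1a2. The cartilage and contractile sums also separated P28 from P4M without overlap. The part of these sums in the results was not tested.

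WT replicate 1 stood apart from the other WT clones. It had the lowest Cyr61, Ctgf and Amotl2 and the highest Wwtr1, Tead1 and Tead4 of its group, the lowest cartilage marker sum (742 CPM, against 1596 to 22885 CPM in the other 4) and the lowest contractile sum (1.11 CPM, against 36.0 to 104 CPM). Its low cartilage sum reflected Col2a1, at 228 CPM. Its Sox9, at 187 CPM, was the highest of the group. WT replicate 5 had less Acan and Col9a1, at 0.475 and 0 CPM against 326 and 0.424 CPM. Results that turned on it are given with and without it.

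A promoter was found for 7 of the members in the RefSeq table (GRCm38.p6, the same assembly as mm10), in which each entry runs from 250 bases before to 50 bases after an annotated transcription start. The letters CATTCC, the core that TEAD factors recognise, were searched on both strands. They were present in 8 of the 10 promoters of these members, against 14.7% of all 32851 promoters of that length. By gene, 6 of the 7 members had a match. The 10 windows are not independent, since the 2 windows of Wwtr1 overlap and hold the same match. Tead2 had no match, and Tead3 had matches at 2 of its 3 annotated starts. The AP-1 letters TGANTCA (both strands) and the CArG box bound by SRF were absent from all 10, against 7.81% and 1.63% of all promoters. The promoter of Cyr61 is shown whole up to its start because, of the 4 readout genes, it is the one whose window before the start overlaps no annotated exon, and Ctgf has no entry. It lies at chr3:145649986-145650235 on the minus strand and is written 5′ to 3′ with the TEAD letters in capitals.
Cyr61: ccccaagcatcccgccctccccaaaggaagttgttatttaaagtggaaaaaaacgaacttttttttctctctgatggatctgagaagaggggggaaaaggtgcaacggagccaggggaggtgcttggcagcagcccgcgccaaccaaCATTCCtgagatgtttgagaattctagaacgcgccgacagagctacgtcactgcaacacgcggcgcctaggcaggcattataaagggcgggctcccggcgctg

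For the other coactivator and readout genes, 10 bases on each side of each match are shown, so that the sites can be set beside that of Cyr61, where the first capital lies 103 bases before the start. The match lies 141 bases before the start of Yap1, 136 before the first annotated start of Wwtr1, 210 and 123 before that of Ankrd1, and 65 before that of Amotl2. In Yap1, Wwtr1 and Ankrd1 the letters read GGAATG along the gene's strand, and in Cyr61 and Amotl2 they read CATTCC. Such a match describes the sequence only.
Yap1, chr9:8004722-8004747, minus strand: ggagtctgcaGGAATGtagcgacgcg
Wwtr1, chr3:57576031-57576056, minus strand: taaactcaaaGGAATGcagataggcg
Ankrd1, chr19:36120039-36120064, minus strand: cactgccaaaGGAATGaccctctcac
Ankrd1, chr19:36119952-36119977, minus strand: cactaagtctGGAATGaaaattcacc
Amotl2, chr9:102717729-102717754, plus strand: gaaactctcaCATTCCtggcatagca

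The 10 transcripts did not move in 1 direction in the deletion clones. Against WT, the P28 clones had higher Yap1, Tead1, Tead2 and Tead3 and lower Tead4 and Ctgf, so 6 of the 10 genes passed the test at an adjusted p under 0.05 (edgeR's quasi-likelihood test, Benjamini-Hochberg over all genes tested). Of all genes tested, 38.9% passed in this comparison, with 19.2% higher and 19.7% lower in P28. The P4M clones had higher Wwtr1, Tead2 and Ankrd1 and lower Tead4, Ctgf and Amotl2 than WT, again 6 of the 10 genes, where 45.9% of all genes passed, 22.3% higher and 23.6% lower. Between the cKO groups, Yap1 and Tead1 were lower in P4M than in P28 and none of the other 8 passed, against 7.22% of all genes, of which 3.34% were higher and 3.88% lower in P4M. The median log2 fold change of the 10 genes was 0.70, 0.30 and -0.52 in the 3 comparisons, and that of all genes was -0.02, -0.06 and -0.01. P28 and P4M were compared with the same WT clones, so the first 2 comparisons share their controls. The labels do not say which clones came from the same mouse, so each p-value measures the spread between clones only.

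**Figure D1:**
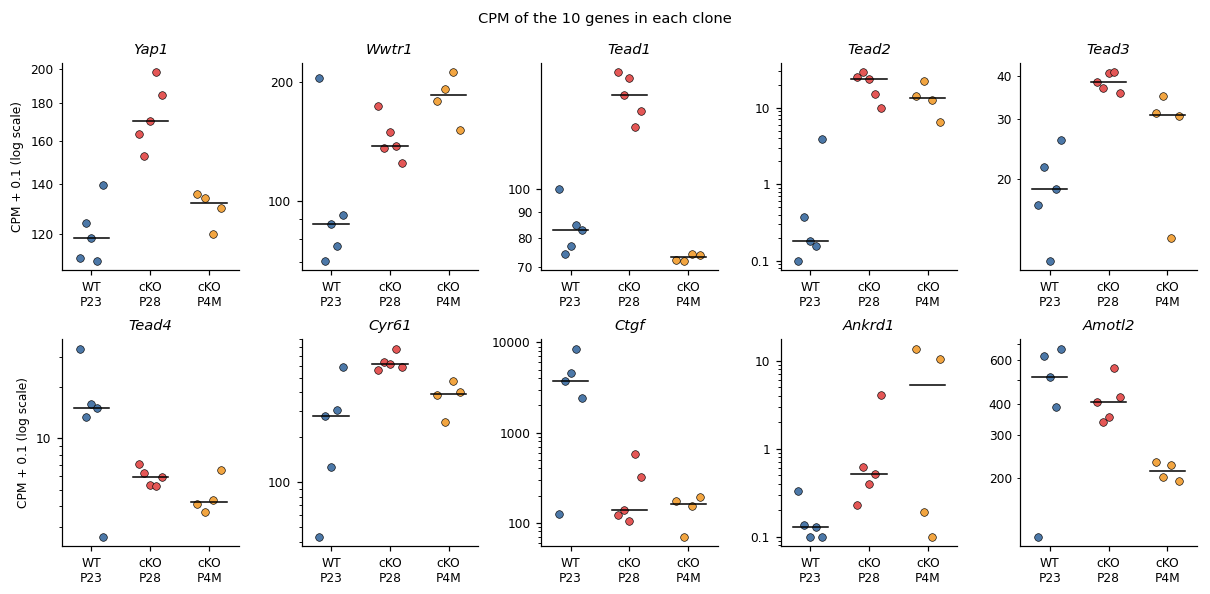
CPM plus 0.1 on a log scale, with its own range in each panel, for the 10 genes. Each point is a clone (5 WT, 5 P28 and 4 P4M) and each line the median of the group; Yap1 and Tead1 of the P28 clones sit above every other clone, and WT replicate 1 is the low WT point for Ctgf, Cyr61 and Amotl2.

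Yap1 (chr9:7931999-8004596, minus strand, mm10) encodes YAP, the coactivator after which the pathway's output is named. Its level was 111, 124, 118, 110 and 140 CPM in WT replicates 1 to 5, 163, 152, 170, 197 and 184 CPM in the P28 clones, and 135, 134, 120 and 130 CPM in the P4M clones. The P28 clones lay above all other clones without overlap, and the P4M clones fell inside the WT range. Yap1 was higher in P28 than in WT by 0.52 ± 0.11 on the log2 scale (SE, adjusted p = 0.0021), a ratio of mean CPM of 1.44. The P4M clones differed from WT by 0.11 ± 0.11 (adjusted p = 0.47, 95% interval -0.14 to 0.35). Against P28 they were lower by a log2 fold change of -0.42 ± 0.11 (adjusted p = 0.041). That last call was lost when any of the 9 cKO clones was left out, with adjusted p between 0.052 and 0.12 and a log2 fold change between -0.45 and -0.35.

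Wwtr1 (chr3:57455649-57575910, minus strand) encodes TAZ, the paralogue of YAP. It was at 204, 70.6, 87.3, 76.7 and 92.2 CPM in the WT clones, where replicate 1 stood far above the other 4. The P28 clones had 174, 136, 150, 137 and 125 CPM and the P4M clones 178, 192, 211 and 151 CPM. All cKO clones lay above WT replicates 2 to 5, and only 1 of them, P4M replicate 3, lay above WT replicate 1. The log2 fold change was 0.44 ± 0.25 for P28 (adjusted p = 0.19) and 0.79 ± 0.27 for P4M (adjusted p = 0.028). Both passed without WT replicate 1, at 0.79 ± 0.13 (adjusted p = 0.00073) and 1.16 ± 0.14 (adjusted p = 7.3e-05). The P4M call was lost when WT replicates 2, 3, 4 or 5 or P4M replicates 2 or 3 were left out and when only P4M and WT were fitted, with adjusted p of 0.056 to 0.069. P4M and P28 differed by 0.34 ± 0.27 (adjusted p = 0.45).

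On the per-length scale of TPM (counts divided by transcript length and scaled to the same total in each clone), which allows genes to be set beside each other, Yap1 and Wwtr1 summed to 74.5 ± 19.9 TPM in WT (SD, n = 5), 127 ± 10.5 TPM in P28 (SD, n = 5) and 107 ± 6.18 TPM in P4M (SD, n = 4). The share of Wwtr1 in that sum was 41.3% ± 11.4 in WT, 41.4% ± 4.43 in P28 and 54.4% ± 4.22 in P4M. Wwtr1 was thus the smaller part in all P28 clones and the larger part in all P4M clones, where the lowest share was 50.1% against a highest of 47.2% in P28. The difference of 13.0 percentage points gave an exact permutation p of 0.016, the smallest that 4 against 5 clones can give, and 0.060 after adjustment over 15 tests of shares (two-sided). In WT, replicate 1 had a share of 61.3% and the other 4 between 32.9% and 38.7%.

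**Figure D2:**
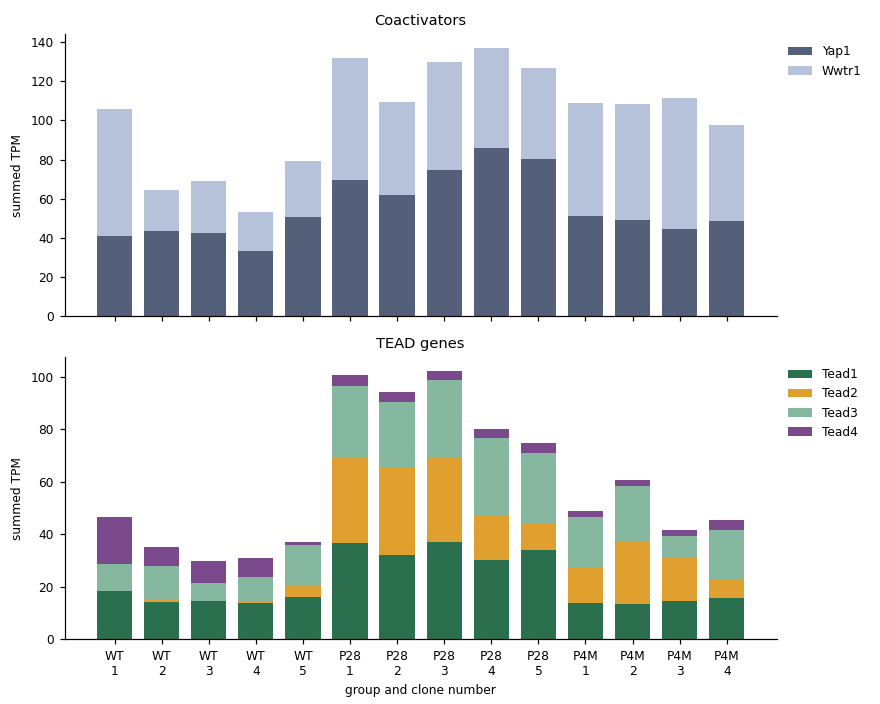
Summed TPM of Yap1 and Wwtr1 (top) and of Tead1 to Tead4 (bottom) in each of the 14 clones, stacked by gene. Summed TEAD levels were 74.6 to 102 TPM in P28 and 29.8 to 60.5 TPM in the other clones, and the Tead2 part of the WT bars is at most 11.3%, in replicate 5, and at most 1.83% in the other 4.

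The TEAD genes encode DNA-binding proteins that share the TEA domain. As a family they were higher in the P28 clones, at 90.3 ± 12.4 TPM (SD, n = 5), than in WT at 35.8 ± 6.62 TPM (SD, n = 5) or P4M at 49.1 ± 8.12 TPM (SD, n = 4). The ranges of P28 and of the other groups did not overlap. On log2(TPM + 1) the median of all genes tested was 0.20 higher in P28 than in WT. The size of the P28 difference in summed TPM, here and for Yap1 with Wwtr1, therefore includes a shift of the scale. The sums were not compared in CPM. Behind the TEAD sum, each member followed a course of its own.

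Tead1 (chr7:112679318-112906807, plus strand) was at 99.6, 74.0, 76.7, 84.7 and 82.6 CPM in WT and at 170, 154, 166, 132 and 143 CPM in P28. In P4M it was at 72.2, 71.8, 74.0 and 73.7 CPM. Every P28 clone was above every WT and P4M clone, and 3 of the 4 P4M clones were below all WT clones. Tead1 was higher in P28 than in WT by 0.87 ± 0.11 on the log2 scale (adjusted p = 9.8e-05), and it was lower in P4M than in P28 by a log2 fold change of -1.07 ± 0.12 (adjusted p = 0.0022). P4M differed from WT by -0.20 ± 0.12 (adjusted p = 0.18). Both calls held when any 1 clone was left out, the second with log2 fold changes of -1.09 to -1.01 and adjusted p of up to 0.0097.

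Tead2 (chr7:45215753-45233644, plus strand) is the family member best known from early embryos and neural progenitors. The WT clones held 0, 7, 2, 2 and 95 counts, or 0, 0.268, 0.0809, 0.0569 and 3.76 CPM, and the 0 in replicate 1 allows up to 0.0977 CPM at its depth. The P28 clones had 24.9, 28.6, 23.4, 14.8 and 9.91 CPM and the P4M clones 14.1, 22.5, 12.3 and 6.30 CPM. The lowest cKO clone was above the highest WT clone, replicate 5. The log2 fold change was 4.62 ± 1.12 for P28 (adjusted p = 0.0057) and 4.06 ± 1.11 for P4M (adjusted p = 0.0095). These values became 7.66 and 7.10 without WT replicate 5, so the size of the difference rests on that clone, while its direction and call were kept in each of the 14 fits that left out 1 clone. P4M and P28 differed by -0.56 ± 1.01 (adjusted p = 0.77, 95% interval -2.73 to 1.61).

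Tead3 (chr17:28331671-28350817, minus strand) was at 16.8, 21.6, 11.5, 18.7 and 26.0 CPM in WT, 38.1, 36.6, 40.5, 40.7 and 35.6 CPM in P28, and 31.0, 34.9, 13.4 and 30.4 CPM in P4M. The P28 clones lay above all others, and P4M replicate 3 lay within the WT range, apart from the other P4M clones. Tead3 was higher in P28 than in WT by 1.02 ± 0.25 on the log2 scale (adjusted p = 0.0057). For P4M against WT the value was 0.54 ± 0.26 (adjusted p = 0.11), and without P4M replicate 3 it was 0.77 (adjusted p = 0.010). The ranges of P4M and P28 did not overlap, but their difference of -0.48 ± 0.26 gave an adjusted p of 0.26.

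Tead4 (chr6:128224288-128300823, minus strand) ran the other way. It was at 33.7, 13.2, 15.9, 15.1 and 2.53 CPM in WT, 7.01, 6.12, 5.21, 5.12 and 5.87 CPM in P28 and 3.99, 3.57, 4.27 and 6.39 CPM in P4M. All cKO clones lay below WT replicates 1 to 4 and above replicate 5. The log2 fold change was -1.45 ± 0.46 for P28 (adjusted p = 0.022) and -1.82 ± 0.50 for P4M (adjusted p = 0.0096). When WT replicate 1 was left out, the P28 value was -1.02 ± 0.40 (adjusted p = 0.056) and the P4M value -1.37 ± 0.43 (adjusted p = 0.019). On log2(TPM + 1) with limma, the P28 value was -0.70 (adjusted p = 0.17). WT replicate 5 thus had the highest Tead2 and the lowest Tead4 of its group.

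In TPM the order of the TEAD genes changed between groups. WT clones had Tead1 first, at 15.4 ± 1.91 TPM, then Tead3 at 11.1 ± 3.26, Tead4 at 8.34 ± 5.91 and Tead2 at 1.03 ± 1.79 TPM (SD, n = 5), with overlap between each pair of neighbours. P28 clones had Tead1 at 34.0 ± 2.92 TPM, Tead3 at 27.6 ± 1.99, Tead2 at 25.01 ± 10.6 and Tead4 at 3.74 ± 0.467 TPM (SD, n = 5), where the Tead2 range, 10.45 to 33.0 TPM, overlapped those of Tead3 and of Tead1. In P4M, Tead3 at 17.0 ± 5.87, Tead2 at 15.2 ± 7.13 and Tead1 at 14.3 ± 1.07 TPM overlapped one another, above Tead4 at 2.55 ± 0.752 TPM (SD, n = 4).

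Tead2 contributed 2.84% ± 4.81 of the summed TEAD TPM in WT, 26.8% ± 8.95 in P28 and 30.5% ± 11.9 in P4M. The exact permutation p was 0.0079 for P28 against WT and 0.016 for P4M against WT, the smallest these numbers of clones can give, and both were 0.060 after adjustment over the 15 share tests. Tead4 contributed 22.7% ± 12.6 in WT, 4.19% ± 0.653 in P28 and 5.39% ± 2.04 in P4M (adjusted p = 0.12 and 0.13 in the exact permutation test). Tead1 contributed 43.3% ± 3.51 in WT, 38.0% ± 4.40 in P28 and 29.9% ± 6.00 in P4M, with an adjusted p of 0.060 for P4M against WT in the exact permutation test. Tead3 stood at 31.1% ± 8.50, 31.0% ± 4.91 and 34.2% ± 9.98. With shares taken from CPM, with no length scaling, the Tead2 share exceeded that of WT by 8.43 points in P28 and 10.7 points in P4M, in place of 24.0 and 27.6 points, and the Tead4 differences were -10.2 and -9.05 points in place of -18.5 and -17.3 points. No share passed after adjustment, and 6 of the 15 tests had an unadjusted p under 0.05.

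**Figure D3:**
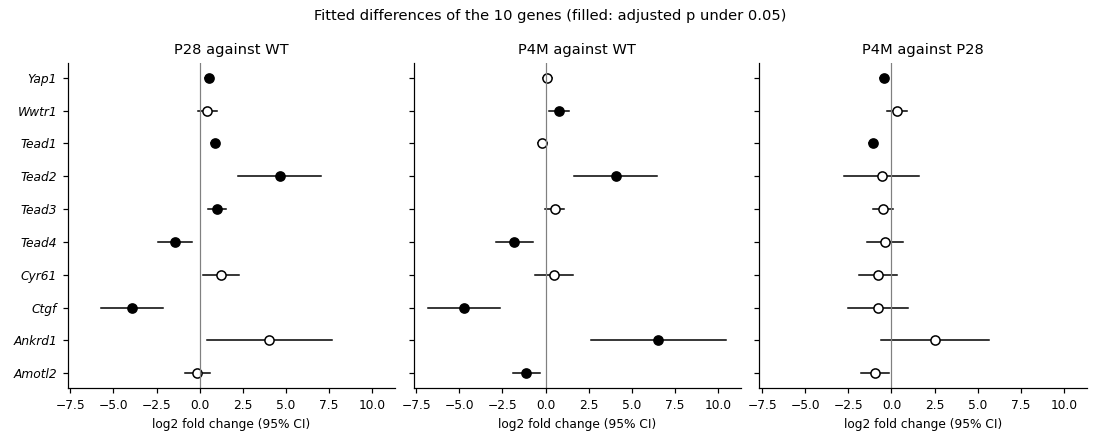
Log2 fold change with its 95% interval for each gene in the 3 comparisons, on a shared axis. Filled points passed an adjusted p under 0.05; Tead2 and Ankrd1 have the widest intervals, and the CCN genes Cyr61 and Ctgf lie on opposite sides of 0 against WT.

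Among the readout genes, Ctgf passed against WT in both cKO groups in the main edgeR fit, and Cyr61 passed in neither. The fitted log2 fold changes of this CCN pair had opposite signs. Both encode secreted matricellular proteins that bind integrins, both are induced by YAP and TEAD in many cell types, and Ctgf is also a product of hypertrophic cartilage. Ctgf (chr10:24595442-24598683, plus strand) was at 124, 3695, 4537, 8551 and 2436 CPM in WT replicates 1 to 5, at 122, 140, 105, 575 and 320 CPM in P28, and at 173, 69.3, 151 and 193 CPM in P4M. WT replicates 2 to 5 exceeded every cKO clone, and WT replicate 1 lay among the cKO clones. Ctgf was lower than in WT in both cKO groups, with a log2 fold change of -3.94 ± 0.84 in P28 (adjusted p = 0.0028) and -4.72 ± 0.96 in P4M (adjusted p = 0.0017), or 6.52% and 3.79% of the WT mean CPM. Leaving out WT replicate 1 gave -4.26 ± 0.59 and -5.04 ± 0.67 (adjusted p = 0.00024 and 0.00014). P4M and P28 differed by -0.78 ± 0.80 (adjusted p = 0.58).

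Cyr61 (chr3:145646976-145649981, minus strand) was at 42.9, 277, 126, 305 and 591 CPM in WT, at 563, 639, 617, 781 and 588 CPM in P28, and at 382, 252, 475 and 398 CPM in P4M. The P28 clones were the highest group, with 3 of 5 above every WT clone and all above every P4M clone, and the WT range covered all P4M clones. The log2 fold change of P28 against WT was 1.25 ± 0.48 (adjusted p = 0.056, 95% interval 0.21 to 2.29). It passed without WT replicate 1, at 0.95 ± 0.34 (adjusted p = 0.041), without WT replicate 5, at 1.76 (adjusted p = 0.0083), and in DESeq2, at 1.26 (adjusted p = 0.031). The P4M clones differed from WT by 0.49 ± 0.50 (adjusted p = 0.45). Their difference from P28 was -0.76 ± 0.51 (adjusted p = 0.37), although the ranges did not overlap, and it passed when only the cKO groups were fitted (-0.76, adjusted p = 0.025).

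Ctgf was therefore the first of the 10 genes in WT by mean TPM, at 2388 ± 1741, ahead of Cyr61 at 201 ± 163 and Amotl2 at 183 ± 91.6 (SD, n = 5), with overlap between these neighbours. In P28, Cyr61 was first at 585 ± 85.1 TPM, above Ctgf at 195 ± 156 TPM (SD, n = 5), and the ranges did not overlap. In P4M, Cyr61 at 303 ± 77.0 TPM likewise lay above Ctgf at 99.0 ± 38.3 TPM without overlap (SD, n = 4). The cartilage marker sum was lower with Ctgf in the cKO groups as a whole. Among the WT clones both followed the same order. Replicates 4, 3, 2, 5 and 1 had sums of 22885, 7335, 5810, 1596 and 742 CPM, and Ctgf of 8551, 4537, 3695, 2436 and 124 CPM. That order was the order of Col2a1, which made up most of the sum in replicates 2 to 5, at 1498 to 21551 CPM. The other markers were ordered otherwise. Acan and Col9a1 were lowest in replicate 5, at 0.475 and 0 CPM, and Sox9 was highest in replicate 1, at 187 CPM. Within the cKO groups the orders differed. P28 replicate 4 had the highest of both in its group, 1324 and 575 CPM. P28 replicate 5 had the lowest sum of its group, 170 CPM, with the second highest Ctgf, 320 CPM, and P4M replicate 4 had the lowest sum, 23.0 CPM, with the highest Ctgf, 193 CPM. WT replicate 1 and P28 replicate 1 had similar Ctgf, 124 and 122 CPM, at sums of 742 and 1040 CPM. In these bulk samples, fewer Ctgf-expressing cells and less Ctgf RNA per cell cannot be told apart.

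**Figure D4:**
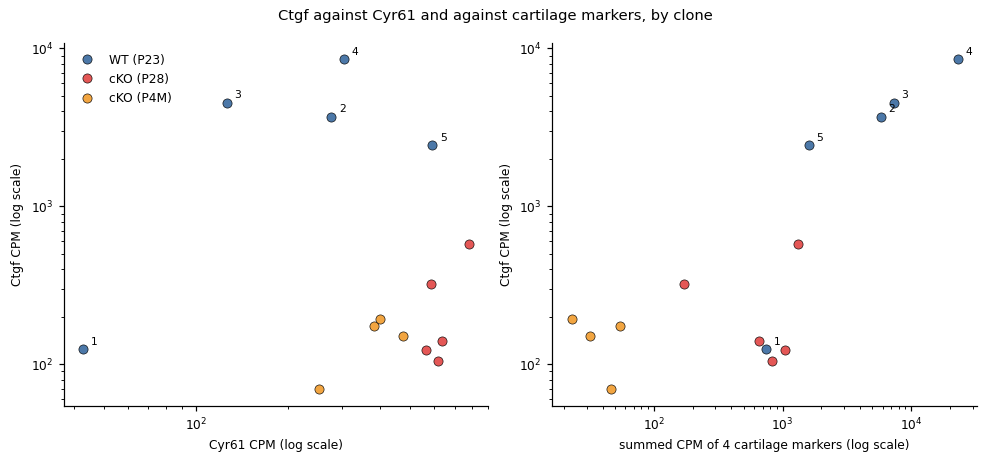
Ctgf CPM against Cyr61 CPM (left) and against the summed CPM of Sox9, Col2a1, Acan and Col9a1 (right), all on log scales, with 1 point per clone and the WT clones numbered. WT replicates 2 to 5 lie at 2436 to 8551 CPM of Ctgf, above all cKO clones, and WT replicate 1 lies with the cKO clones.

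Ankrd1 (chr19:36111961-36120099, minus strand) encodes a nuclear ankyrin-repeat protein abundant in stressed heart muscle. It was at or near the limit of detection in most clones. WT libraries held 7, 1, 0, 1 and 0 counts, and the 0 in replicates 3 and 5 allows up to 0.121 and 0.119 CPM. The P28 clones had 0.129, 0.526, 0.298, 0.423 and 3.94 CPM, and the P4M clones had 13.6, 0.0910, 0 and 10.2 CPM, where the 0 allows up to 0.0593 CPM. P4M replicates 1 and 4 and P28 replicate 5 stood above all other clones, while P4M replicates 2 and 3 were within the WT range. The fitted log2 fold change was 4.04 ± 1.68 for P28 (adjusted p = 0.073) and 6.53 ± 1.82 for P4M (adjusted p = 0.011), the latter resting on 2 of 4 clones. The P28 value was 2.41 (adjusted p = 0.26) without P28 replicate 5, 5.66 (adjusted p = 0.052) without WT replicate 1 and 0.70 (adjusted p = 0.40) on log2(TPM + 1). The P4M value was 8.16 (adjusted p = 0.011) without WT replicate 1, which held 7 of the 9 WT counts, and on log2(TPM + 1) it was 1.67 (adjusted p = 0.064). Markers of striated muscle were at or near 0 in the same clones.

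Amotl2 (chr9:102716672-102733418, plus strand) encodes an angiomotin-family scaffold that binds YAP and is itself induced by it. WT clones had 116, 625, 515, 388 and 668 CPM, P28 clones 407, 339, 353, 557 and 427 CPM, and P4M clones 232, 203, 226 and 195 CPM. All P4M clones lay below all P28 clones and below WT replicates 2 to 5, but above WT replicate 1. Against WT the log2 fold change was -0.15 ± 0.34 in P28 (adjusted p = 0.76) and -1.11 ± 0.37 in P4M (adjusted p = 0.025). With WT replicate 1 left out these were -0.43 ± 0.19 (adjusted p = 0.085) and -1.37 ± 0.20 (adjusted p = 0.00025), whereas leaving out WT replicate 2 or 5 or P4M replicate 1, 2 or 4 took the P4M call to adjusted p of 0.052 to 0.064, and fitting only P4M and WT or using log2(TPM + 1) took it to 0.062 and 0.087. P4M against P28 was -0.96 ± 0.37 (adjusted p = 0.12). This difference passed without WT replicate 1, a clone of neither group, at -0.94 (adjusted p = 0.011). It also passed when only the cKO groups were fitted (-0.96, adjusted p = 0.0075).

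Readouts of the same complex were thus not ordered alike across the groups. Cyr61 was highest in P28, Ctgf in 4 of 5 WT clones, Ankrd1 in 2 P4M clones, and Amotl2 was lowest in P4M apart from WT replicate 1. Within groups, after centring log2 CPM on each group's mean, Pearson's r over the 14 clones was 0.72 for Cyr61 and Ctgf, 0.83 for Cyr61 and Amotl2 and 0.82 for Ctgf and Amotl2. Over the 13 clones without WT replicate 1, the same values were 0.073, 0.36 and 0.15. Wwtr1 and Ctgf gave -0.88 with that clone and -0.50 without it. Yap1 gave 0.58 with Amotl2 and 0.80 without WT replicate 1, and 0.43 and 0.34 with Cyr61. These r values describe clones that share culture and library preparation, and they carry no test.

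The genes most like Yap1 in their clone-to-clone course, among 9659 genes compared, were Gm2115 (r = 0.92), Qrich1 (0.91) and Bnip2 (0.90), with values of 0.91, 0.90 and 0.89 without WT replicate 1. Qrich1 and Bnip2 lie on chromosome 9, as Yap1 does, and Gm2115 on chromosome 7. For Cyr61 they were Slc25a14, Pkia and Cetn2 (r = 0.96 each, 0.89 to 0.90 without WT replicate 1), and for Ctgf they were Ly6c1 (0.96), Anxa3 (0.96) and Elof1 (0.95), with 0.83 to 0.86 without it.

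The kinase cascade upstream of YAP was represented by 14 genes, all of them tested. In P28 against WT, 8 passed, 5 higher and 3 lower, beside 38.9% of all genes. In P4M against WT 8 passed, 6 higher and 2 lower, beside 45.9% of all genes. Wwc1 (KIBRA, a scaffold that promotes LATS activity) was at 0.0326 to 3.60 CPM in WT, 4.59 to 18.8 CPM in P28 and 8.04 to 16.2 CPM in P4M. Its log2 fold change was 2.79 ± 0.91 in P28 (adjusted p = 0.027) and 3.03 ± 0.94 in P4M (adjusted p = 0.018). Without WT replicate 2 both grew, to 3.48 and 3.72, and the P28 call was lost without WT replicate 5 or P28 replicate 2 (adjusted p = 0.052 and 0.067) or with only those groups fitted (0.062). Its relative Wwc2 was higher by 1.01 ± 0.13 and 0.999 ± 0.14 (adjusted p = 0.00015 and 0.00016). Lats2, the kinase that phosphorylates YAP and is also one of its targets, was at 46.2 to 68.5 CPM in WT and 84.8 to 150 CPM in P28, a log2 fold change of 0.996 ± 0.18 (adjusted p = 0.00084). Taok2, a kinase of the family that activates the MST kinases, was lower in P4M than in both other groups. It was at 81.6 to 118 CPM in WT, 71.3 to 82.1 CPM in P28 and 42.9 to 47.5 CPM in P4M, and its log2 fold change was -1.17 ± 0.12 against WT (adjusted p = 1.9e-05) and -0.74 ± 0.12 against P28 (adjusted p = 0.0060). It was the 1 gene of the 14 in the cascade that passed between the cKO groups, where 7.22% of all genes passed.

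A list of proteins that bind YAP or TEAD also held the upstream cadherins Fat4 and Dchs1. Of the 12 genes listed, 11 were tested (Vgll1 was listed at 0 TPM in every clone), and 4 were higher in P28, 3 were higher and 2 lower in P4M against WT, and 2 were lower in P4M than in P28, beside 38.9%, 45.9% and 7.22% of all genes. Dchs1, the protocadherin ligand of Fat4, was at 0 to 0.0809 CPM in WT, 1.77 to 32.1 CPM in P28 and 0.489 to 17.6 CPM in P4M. It passed in P28 and P4M against WT (adjusted p = 0.00028 and 0.00067), with fitted log2 fold changes of 8.78 ± 1.28 and 7.04 ± 1.24. Without P4M replicate 3 the P4M value was 5.62, and on log2(TPM + 1) it was 0.68 (adjusted p = 0.19). Vgll2, a TEAD cofactor of muscle, had no count in any WT clone and was at least 42.0-fold higher in P28 and 21.3-fold higher in P4M, against a floor of 3 counts over the 5 WT libraries. These bounds rested on single clones: without P28 replicate 5, at 3.48 CPM, the first was 16.6-fold, and without P4M replicate 4, at 1.45 CPM, the second was 3.09-fold. It passed in both cKO groups (adjusted p = 0.022 and 0.044), but with no WT count it was tested only through its counts in cKO clones. Of the fits without 1 clone, 11 still tested it, and its P4M call was kept in 4 of these. The call was lost without any 1 of 7 clones, all 5 WT clones and P4M replicates 1 and 4 (adjusted p = 0.050 to 0.17). It was also lost with no filter on low counts (adjusted p = 0.062). On log2(TPM + 1) Vgll2 passed in neither cKO group (adjusted p = 0.078 and 0.44). Amot, an angiomotin that binds YAP, was at 8.93 to 97.1 CPM in WT and 49.0 to 195 CPM in P28, a log2 fold change of 1.80 ± 0.55 (adjusted p = 0.019). Without WT replicate 2 it was 2.57 (adjusted p = 0.0012), without P28 replicate 1 it was 1.56 (adjusted p = 0.052), and with only those groups it was 1.76 (adjusted p = 0.051).

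Vgll3 and Fat4 set the cKO groups apart. Vgll3, a TEAD cofactor that competes with YAP for TEAD surfaces, was at 66.0 to 193 CPM in P28 and 6.92 to 24.7 CPM in P4M. It was lower in P4M than in P28 by a log2 fold change of -3.25 ± 0.63 (adjusted p = 0.013) and lower than in WT by -2.93 ± 0.62 (adjusted p = 0.0023). WT replicate 1, at 14.9 CPM, lay within the P4M range, below the rest of its group. Fat4, the protocadherin receptor of Dchs1, was at 104 to 471 CPM in P28 and 29.7 to 39.8 CPM in P4M, a log2 fold change of -2.76 ± 0.59 (adjusted p = 0.018), and the call was lost without P4M replicate 1, 2 or 4 (adjusted p = 0.051 to 0.055).

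The 18 other genes described as YAP targets in other cells were split. In P28 against WT, 7 passed, 4 higher and 3 lower, in the proportion of all genes (38.9%). In P4M against WT, 12 passed, 8 higher and 4 lower, where 45.9% of all genes passed, and between the cKO groups 2 were lower in P4M, where 7.22% of all genes passed. Their median log2 fold changes were 0.32, 0.03 and -0.24. F3 (tissue factor, which starts coagulation) was at 0.484 to 7.49 CPM in WT, 9.22 to 72.9 CPM in P28 and 7.35 to 15.3 CPM in P4M, a log2 fold change of 4.05 ± 0.83 for P28 (adjusted p = 0.0022). It was 5.22 without WT replicate 1. Rbms3, which encodes an RNA-binding protein, was higher by 3.49 ± 0.39 in P28 and 3.41 ± 0.40 in P4M (adjusted p = 5.3e-05 and 5.1e-05). Gadd45a, a growth arrest gene that p53 also activates, was lower in P28 by a log2 fold change of -2.11 ± 0.60 (adjusted p = 0.014), and its P4M clones at 72.0 to 261 CPM lay near the WT range of 81.6 to 252 CPM.

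In P4M, Nuak2, a kinase that acts on actomyosin, was at 0.507 to 0.909 CPM against 0.0652 to 128 CPM in WT, a log2 fold change of -5.55 ± 1.32 (adjusted p = 0.0044). It was -3.95 without WT replicate 2, the clone at 128 CPM, and WT replicate 1, at 0.0652 CPM, lay below the P4M clones. Ccdc80, a secreted matrix protein, was lower by -2.85 ± 0.67 (adjusted p = 0.0042). Its P4M clones were at 117 to 211 CPM, and WT replicate 1, at 143 CPM, lay within that range. Arhgef17 and Crim1, a transmembrane protein that binds BMPs, were lower in P4M than in P28 by log2 fold changes of -1.15 ± 0.22 and -1.12 ± 0.21 (adjusted p = 0.012 and 0.011). Both also passed as lower against WT, and Crim1 was lower in P28 than in WT too.

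Of the 4 other CCN genes, 3 were tested, and 1 of them, Ccn4, passed against WT in both cKO groups, beside 38.9% and 45.9% of all genes. None passed in P4M against P28 in edgeR or DESeq2, and 0 had an unadjusted p under 0.05. In edgeR 7.22% of all genes passed in that comparison. Ccn4 (WISP1, a WNT-induced gene of osteoblasts) was at 13.6 to 48.2 CPM in WT, 64.3 to 192 CPM in P28 and 125 to 350 CPM in P4M, with no overlap between WT and the cKO groups. Its log2 fold change was 2.09 ± 0.43 in P28 (adjusted p = 0.0023) and 2.91 ± 0.46 in P4M (adjusted p = 0.00034), and both were kept in each fit without 1 clone. Ccn5, which lacks the C-terminal domain of its relatives, was at 0.130 CPM in WT replicate 1 and had a WT median of 459 CPM, against 49.0 to 132 CPM in P28 and 36.1 to 94.4 CPM in P4M. It gave -2.01 ± 0.97 and -2.65 ± 1.09 (adjusted p = 0.12 and 0.060), and without WT replicate 1 -2.35 ± 0.32 and -2.98 ± 0.35 (adjusted p = 0.00020 and 6.6e-05). Ccn3 (NOV) ranged from 15.6 to 230 CPM in WT, 21.3 to 667 CPM in P28 and 2.32 to 378 CPM in P4M and passed in no comparison. Its P4M value against WT was -0.05 ± 1.36 with all clones and -4.65 (adjusted p = 0.0096) without P4M replicate 3, the clone at 378 CPM. Ccn6 was at or under 0.0994 CPM in every clone and was not tested.

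**Figure D5:**
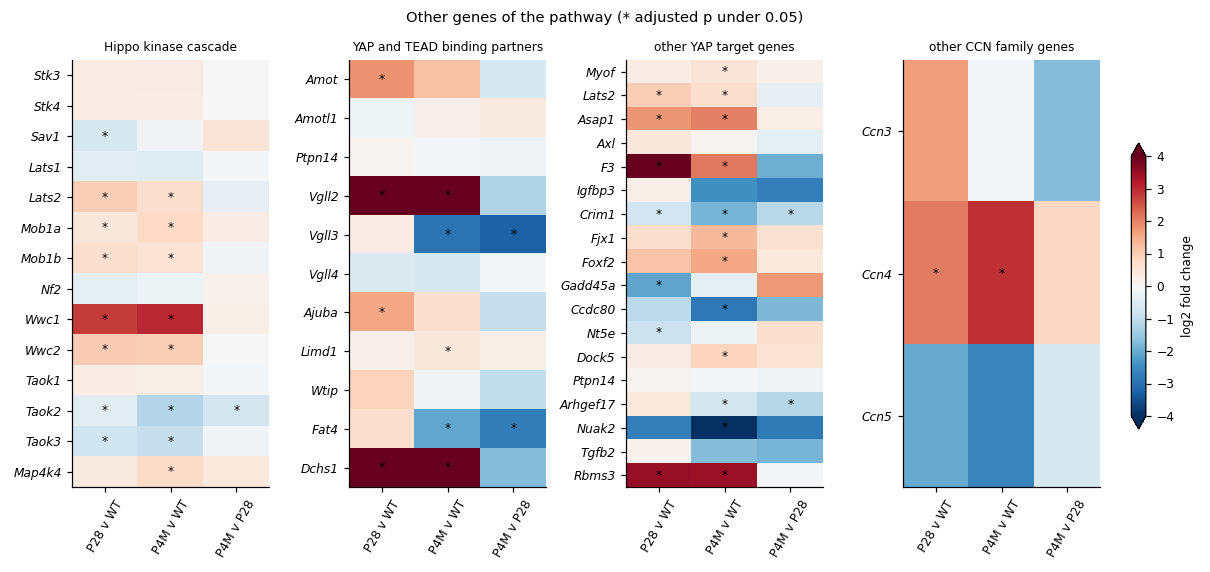
Fitted log2 fold changes of the tested genes of 4 lists in the 3 comparisons, with red higher and blue lower in the first-named group, colours capped at 4, and asterisks for an adjusted p under 0.05. Calls of both signs occur in the kinase cascade and in the other YAP targets, and few asterisks fall in the column of P4M against P28.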

How the data were processed

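The authors prepared bulk RNA-seq libraries (SMART-Seq v4 and Nextera XT, a kit that does not keep strand), mapped 50-cycle reads with TopHat and Bowtie2 to mm10 (Ensembl 93 genes) and counted unambiguous reads with HTSeq. Versions are not given in the sources used here, and the titles of the deposited tables belong to other counting software than the methods cite. The deposited raw counts per gene were tested as whole numbers, and the deposited TPM values, scaled by the authors to gene length and library, were used only to compare genes and for shares. Total counts per clone ran from 25688946 to 52857424, and floors (3 counts) cover counting error only, whereas fitted intervals rest on the spread between clones.

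Counts were fitted with edgeR 4.0.16 (TMM, filterByExpr, robust quasi-likelihood test) in R 4.3.3, with all 14 clones in 1 model of 3 groups and Benjamini-Hochberg adjustment over 17358 genes at 0.05. CPM are counts over TMM-scaled library sizes. Standard errors are the log2 fold change over the square root of F. Shares were compared by exact two-sided permutation tests (scipy 1.17.1). DESeq2 1.42.0 and limma 3.58.1 on log2(TPM + 1) were alternatives, and the scripts were tested on simulated counts. The largest share of genes with equal counts in any of the 91 pairs of libraries was 24.6%, so no library was treated as deposited more than once.

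The members and lists were chosen with earlier results of these data known. The text names all members, the 3 genes of each list with the largest absolute log2 fold change among those that passed in a comparison, all CCN genes, the 3 genes most like Yap1, Cyr61 and Ctgf among tested genes averaging 3 or more on the log2 CPM scale, and listed neighbours of Yap1. Lats2 and Ptpn14 are in 2 lists each. Cyr61 and Ctgf were matched under Ccn1 and Ccn2. Gene positions are from GENCODE M21 (mm10). Reads of Ctgf and Gm15270 (at most 289 counts in a clone), and of Tead1 and 2310014F06Rik (at most 173), come from overlapping genes on opposite strands and cannot be told apart without strand. FPKM values and principal component tables were not used.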

Additional observations from a re-analysis of the deposited data

Results flagged for a closer look

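A group of 4 or 5 clones was singled out where its highest or lowest clone lay far from the nearest other clone relative to the range of the group. Of 45 groups of values (10 genes and 5 shares in 3 groups of clones), 6 met this. A chance rate of about 1 in 20 would hold only for independent, normally distributed values. The shares are made from the same genes, so the flags are not independent, and an excess over chance was not tested. WT replicate 1 had the highest Wwtr1 of its group, 204 CPM against 92.2 CPM in the next clone, and the highest Wwtr1 share of summed Yap1 and Wwtr1 TPM, 61.3% against 38.7%. It also had 0.228 CPM of Ankrd1 against 0.0383 CPM, a matter of 7 counts. WT replicate 5 had 3.76 CPM of Tead2 against 0.268 CPM in the next clone, and a Tead2 share of summed TEAD TPM of 11.3% against 1.83%. P28 replicate 5 had 3.94 CPM of Ankrd1 against 0.526 CPM in the next clone.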

How the results depend on the processing

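Counts of the 10 genes that passed were 3 in P4M against WT when only those groups were fitted (6 with all clones), and in P4M against P28 they were 1 with a minimum absolute log2 fold change of 1, 1 with no filter on low counts and 4 with only those groups (2 with all clones). The kinase cascade gave 2 and 2 against WT with the minimum of 1 (8 and 8), and between the cKO groups 0 with that minimum and 2 in DESeq2, with RLE scaling and with only those groups (1). Partners gave 2 in P28 with at least 10 counts in every clone or with only those groups (4), and 3 in P4M with at least 10 counts (5). The other targets gave 4 in P28 with the minimum of 1 (7), and between the cKO groups 6 in DESeq2 and 6 with only those groups (2). The other CCN genes gave 2 in P4M against WT in DESeq2 (1).

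Leaving out 1 clone at a time gave 6 to 7, 4 to 6 and 1 to 3 members in the 3 comparisons, 7 to 10, 8 to 10 and 1 to 2 cascade genes, 3 to 5, 3 to 5 and 1 to 3 partners, 7 to 10, 8 to 12 and 2 to 4 other targets, and 1 to 2, 1 to 2 and 0 to 1 CCN genes. Amotl2 in P28 against WT changed sign on log2(TPM + 1), to 0.28, and without WT replicate 5, to 0.018, the upper end of a range that ran from -0.43 without WT replicate 1. The Tead1 and Tead3 shares of P28 against WT changed sign in CPM with no length scaling, to 0.126 and 1.68 percentage points, and the Tead3 and Wwtr1 shares when 1 clone was left out, with ranges of -2.35 to 2.54 and -1.996 to 5.12. Every other share kept its direction, with smaller Tead2 and Tead4 differences in CPM, and no share passed in any alternative. Cyr61 in P28 against WT passed in DESeq2 (adjusted p = 0.031), with no scaling (0.037), with at least 10 counts in every clone (0.044) and on log2(TPM + 1) (0.0064), Wwtr1 passed there on log2(TPM + 1) (0.019), and Ankrd1 passed there in DESeq2 (0.032) and without P4M replicate 3 (0.038). Yap1 in P4M against P28 lost its call with no filter (0.12). On log2(TPM + 1) the fold changes of low genes such as Dchs1, Nuak2 and Wwc1 were smaller by construction.

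Of the alternative values for single members, 579 kept direction and call, 27 lost the call, 14 gained it and 2 changed sign; no cause was tested. Over all genes, P28 against WT gave 3336 higher and 3414 lower calls in edgeR but 5141 and 1938 on log2(TPM + 1), where the median gene shifted by 0.20. P4M against P28 gave 580 and 674, but 400 and 805 with no scaling and 376 and 1194 on log2(TPM + 1). Its total of 1254 was 2814 in DESeq2, 3051 with only those groups, 2132 without WT replicate 1, and as low as 480 without P4M replicate 1. Few counts limit Ankrd1 in WT and in P4M replicates 2 and 3, and Tead2 in WT replicates 1 to 4. The Vgll2 bounds without 1 clone were chosen after seeing the data. No paired analysis was possible because the labels give the clones no shared replicate numbers.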

Other observations

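The region around Yap1 on chromosome 9 holds Birc2 and Birc3, which encode inhibitors of apoptosis, and a cluster of matrix metalloproteinase genes. Of 10 listed neighbours, 5 passed in P28 against WT, 2 higher and 3 lower, and 4 passed in P4M against WT, 2 higher and 2 lower, beside 38.9% and 45.9% of all genes. In P4M against P28, 1 passed, beside 7.22% of all genes. Birc2 was lower in both cKO groups, with a log2 fold change of -0.69 in P28 (adjusted p = 0.0050) and -0.99 in P4M (adjusted p = 0.00068), while Yap1 was higher in P28. Mmp3 was lower by -3.27 and -5.68 (adjusted p = 0.035 and 0.0056), and Trpc6, a cation channel gene, was higher by 1.84 and 4.09 (adjusted p = 0.022 and 0.00032) and was the 1 neighbour that passed between the cKO groups, higher in P4M by 2.24 (adjusted p = 0.037).

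Over the 14 tested genes within 2 Mb of Yap1, the median of log2 CPM minus the WT mean was -0.08 to 0.63 in the P28 clones, where Yap1 itself was at 0.34 to 0.72, and 0.31 to 0.52 in the P4M clones, where Yap1 was at -0.0031 to 0.17. Around Ctgf, 19 genes had medians of -0.98 to -0.25 in P28 and -1.40 to -0.43 in P4M clones, less than Ctgf itself at -4.34 to -1.89 and -4.94 to -3.46. Around Cyr61, 27 genes had medians of 0.30 to 0.86 and 0.35 to 0.67, where Cyr61 was at 1.54 to 2.01 and 0.38 to 1.30. These medians are descriptions with no test.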
